A study of Mus musculus with 10 samples.

Results

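Costimulatory receptors are the second line of signals that a T cell reads beside its antigen receptor, and 10 of their genes were followed in effector memory-like (EM) γδ T cells of the mouse spleen. The genes were taken from a fixed list of symbols (*Cd28*, *Icos*, *Cd27*, *Tnfrsf4*, *Tnfrsf9*, *Tnfrsf18*, *Tnfrsf1b*, *Cd226*, *Crtam* and *Slamf7*), matched by Entrez ID, and all 10 were found among the 27179 genes counted. All 10 passed the filter on low counts. CD28 and ICOS belong to the immunoglobulin superfamily and act through phosphoinositide 3-kinase. CD27, OX40 (*Tnfrsf4*), 4-1BB (*Tnfrsf9*), GITR (*Tnfrsf18*) and TNFR2 (*Tnfrsf1b*) are receptors of the tumor necrosis factor family that recruit TRAF adaptors and switch on NF-κB, whereas CD226, CRTAM and SLAMF7 bind adhesion molecules of the nectin, nectin-like and SLAM families. In mice, CD27 is also the surface marker that divides γδ T cells prone to make IFNγ (CD27+) from those prone to make IL-17 (CD27-).

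The question was whether EM γδ T cells differ in their transcripts long after a cured malaria infection. Female C57BL/6 mice aged 6 to 8 weeks were pre-exposed by intravenous injection of 50000 red blood cells infected with *Plasmodium chabaudi* (n = 5) or were left uninfected (naïve, n = 5). Both groups received chloroquine and pyrimethamine, each at 10 mg/kg on day 14 or the matched time and then in the drinking water for 5 days, so the drugs are shared by the controls. Spleens were taken 12 weeks after the drugs ended, and CD3+ γδTCR+ CD62L- CD44+ cells were sorted and sequenced as 1 library per mouse. CD27 was not used for the sort.

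The libraries held 8747888 to 22542832 counts in pre-exposed mice and 6587199 to 19993444 counts in naïve mice. The 9 markers taken for γδ T cells were *Cd3e*, *Cd3d*, *Cd3g*, *Cd247*, *Cd44*, *Trdc*, *Trgc1*, *Trgc2* and *Trgc4*. Their summed level was 4848 to 15507 CPM (counts per 1e+06 of the library, scaled) in pre-exposed mice and 7237 to 11902 CPM in naïve mice, with no marker of that list at 0 in any group. The CD3 chain genes, *Cd247* and *Cd44* are not particular to γδ T cells, so the sum does not measure their share. Of the 9 markers, 5 had positive and 4 negative log2 fold changes. Libraries stood apart in other ways. The length trend of a library was the rank correlation of gene length with log2 CPM, each gene centred on its mean over the 10 libraries. It is thus relative to the other libraries. The correlation was 0.27 in pre-exposed mouse 1, -0.54, -0.42 and -0.24 in pre-exposed mice 2, 3 and 4 and -0.14 in pre-exposed mouse 5, against 0.26 to 0.41 in naïve mice. The top 10 genes made up 24.7% of the library of pre-exposed mouse 5. Markers of other cells were also higher in many pre-exposed libraries: the 9 monocyte and macrophage markers summed to 521 to 2062 CPM in pre-exposed mice, against 231 to 311 CPM in naïve mice, and the 7 markers of αβ T cells to 1619 to 3331 CPM, against 1648 to 1997 CPM. Plasma cell markers summed to 717 to 5913 CPM, against 335 to 1070 CPM, and erythroid markers to 325 to 2040 CPM, against 79.6 to 459 CPM. B cell markers overlapped, with 80.5 to 180 CPM, against 103 to 167 CPM. Immunoglobulin genes made up 0.345% to 6.68% of counts, against 0.0845% to 0.737%. Results are also given with the length trend removed, for pre-exposed mice 2 to 4 alone and for pre-exposed mice 1 and 5 alone. This split follows the sample descriptions, which carry an index pair for pre-exposed mice 1 and 5 and for all naïve mice but not for pre-exposed mice 2 to 4. Whether those 3 libraries were prepared separately is not stated, and no naïve library has that style of description, so in values for mice 2 to 4 alone a difference in preparation and pre-exposure cannot be told apart. The length trend does not divide the mice in the same way, since mouse 5 is close to mouse 4.

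Promoter windows of 250 bases before to 50 bases after the start site were read from RefSeq for GRCm38.p6, the build of mm10. Positions count from the start site of each window. For *Tnfrsf4*, *Cd27* and the second window of *Tnfrsf9*, that site lies inside the gene span given below, not at its start. RefSeq windows were matched for 6 of the 10 genes. Those of *Tnfrsf4* and *Tnfrsf18* are shown because these neighbouring genes on chromosome 4, which lie 9708 bases apart, were the TNF receptor family members whose means differed most between the groups. That of *Cd27* is shown as the marker of the γδ subsets, and the second window of *Tnfrsf9* as the window that held the most motif matches. Capitals mark matches, on either strand, to the letters GGNNTTTCC (NF-κB), TGANTCA (AP-1), GGAAA (NFAT), TGTGGTT (RUNX) and TTCNNNGAA (STAT).
*Tnfrsf4*, chr4:156013445-156013744, plus strand: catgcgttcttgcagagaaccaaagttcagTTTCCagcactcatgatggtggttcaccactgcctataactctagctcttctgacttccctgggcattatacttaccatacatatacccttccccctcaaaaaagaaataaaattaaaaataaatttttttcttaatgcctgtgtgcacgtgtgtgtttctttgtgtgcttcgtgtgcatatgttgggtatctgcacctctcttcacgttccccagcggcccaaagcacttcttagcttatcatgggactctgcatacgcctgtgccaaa
*Tnfrsf18*, chr4:156026072-156026371, plus strand: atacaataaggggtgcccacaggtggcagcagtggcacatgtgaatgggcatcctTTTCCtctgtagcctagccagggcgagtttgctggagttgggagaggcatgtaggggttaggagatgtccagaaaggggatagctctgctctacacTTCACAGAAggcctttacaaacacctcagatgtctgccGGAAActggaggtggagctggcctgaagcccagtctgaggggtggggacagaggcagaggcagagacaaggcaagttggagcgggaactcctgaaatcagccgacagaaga
*Tnfrsf9*, chr4:150927749-150928048, plus strand: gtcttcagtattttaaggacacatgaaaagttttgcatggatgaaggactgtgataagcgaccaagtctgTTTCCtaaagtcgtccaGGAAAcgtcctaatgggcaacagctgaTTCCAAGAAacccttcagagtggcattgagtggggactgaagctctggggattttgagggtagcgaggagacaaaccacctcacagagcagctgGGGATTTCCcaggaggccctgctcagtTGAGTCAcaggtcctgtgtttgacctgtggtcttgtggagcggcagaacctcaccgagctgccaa
*Cd27*, chr6:125236978-125237277, minus strand: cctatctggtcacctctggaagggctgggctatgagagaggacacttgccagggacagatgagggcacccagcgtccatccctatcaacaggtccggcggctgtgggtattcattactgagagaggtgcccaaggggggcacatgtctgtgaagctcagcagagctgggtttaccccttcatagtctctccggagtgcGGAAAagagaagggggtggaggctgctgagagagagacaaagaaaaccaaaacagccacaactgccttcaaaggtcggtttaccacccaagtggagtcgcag

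Of all 32851 RefSeq promoter windows of this length, 5.82% held the NF-κB letters, 7.81% the AP-1 letters, 61.3% the NFAT letters, 5.27% the RUNX letters and 8.30% the STAT letters. The *Tnfrsf4* window held 1 match, to the NFAT letters at base -220. The *Tnfrsf18* window held 2 NFAT matches, at -195 and -61, and 1 STAT match at -99. In the second *Tnfrsf9* window there was 1 NF-κB match at -42, 1 AP-1 match at -15, 1 STAT match at -136 and 3 NFAT matches, of which the one at -38 lies inside the NF-κB match, since the NF-κB letters always include the reverse of the NFAT letters. The *Cd27* window had 1 NFAT match, at -52. A match is a description of the letters and was not tied to binding by any measurement here.

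Across the 10 genes, *Tnfrsf4* was the only one that rose in pre-exposed EM γδ T cells in the test over all genes, by 2.60 on the log2 scale. No member fell. The quasi-likelihood test of edgeR was fitted over 12655 genes, and a gene was called at a Benjamini-Hochberg adjusted p under 0.05. Of all genes, 6.29% were called, 5.12% as higher and 1.17% as lower, and 1 of 10 members is read against these shares. An unadjusted p under 0.05 was seen for 3 of 10 members and for 24.3% of all genes. DESeq2 called 3 of 10 members, against 10.7% of all genes. In edgeR, 4 of 10 members were called with pre-exposed mice 2 to 4 alone, where 29.8% of all genes were called, and 0 of 10 with pre-exposed mice 1 and 5 alone, where 0.182% were and where 2 members, *Cd28* and *Icos*, had an unadjusted p under 0.05. With the length trend removed the count was 0 of 10, against 1.69% of all genes, with 3 members (*Cd28*, *Icos* and *Tnfrsf4*) at an unadjusted p under 0.05. The median log2 fold change of the members was 0.40, that of all genes tested 0.02. Because these are bulk libraries, fewer cells of a type and less RNA per cell cannot be told apart. Exact permutation tests of each gene were two-sided, compared mean log2 CPM over mice, and were not adjusted over the 10 genes. The smallest p they can give is 0.00794.

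**Figure D1:**
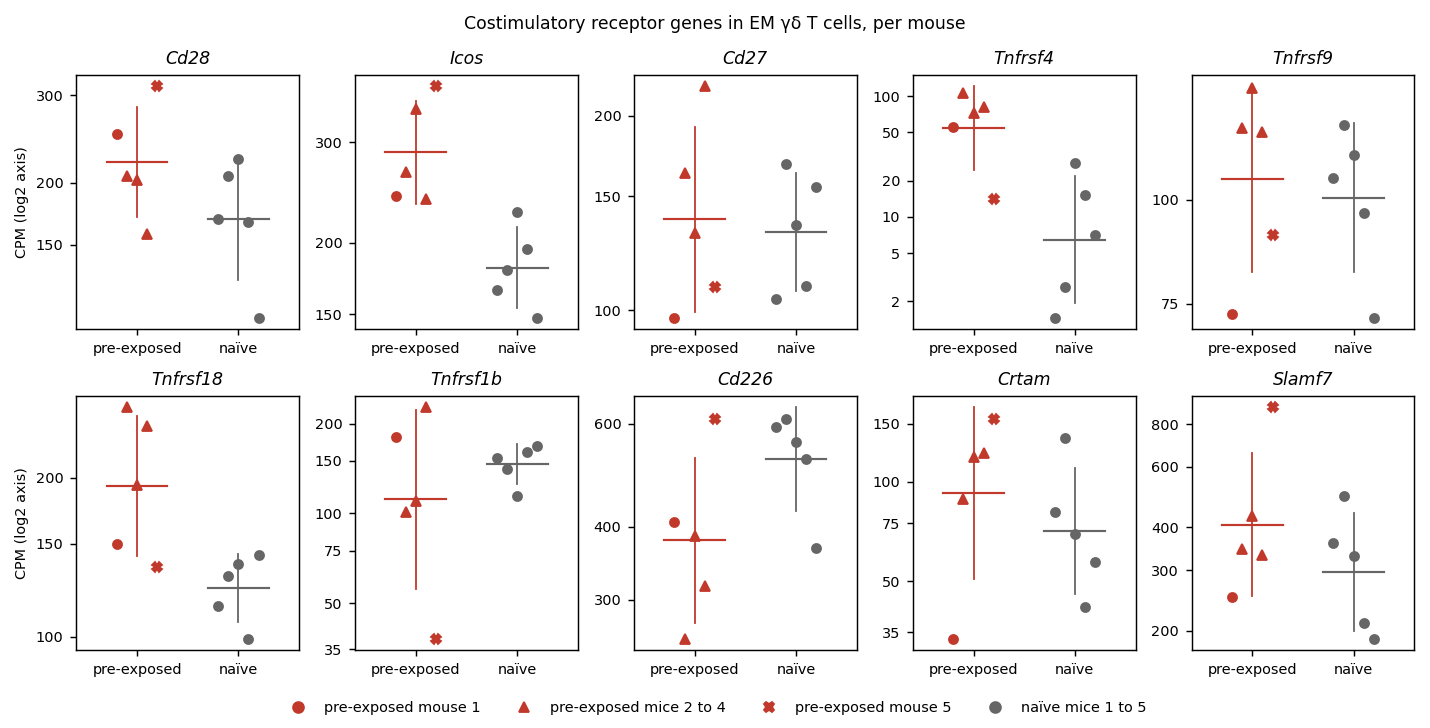
Level in CPM (log2 axis) of each costimulatory receptor gene in 5 pre-exposed and 5 naïve mice. Points are mice, horizontal bars are means and vertical bars 1 SD, both on the log2 scale. *Icos* is the gene whose groups did not overlap, with 238 to 376 CPM in pre-exposed mice and 148 to 226 CPM in naïve mice.

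CD28 is the receptor for CD80 and CD86, and ICOS is the receptor for ICOS ligand. *Icos* (Entrez 54167, chr1:60960773-61000322, mm10) had 242, 266, 343, 238 and 376 CPM in pre-exposed mice 1 to 5, against 165, 179, 226, 195 and 148 CPM in naïve mice 1 to 5. The groups did not overlap, with the lowest pre-exposed mouse above the highest naïve mouse, a separation that 2.77% of all tested genes showed in this direction. Means were 293 ± 62.9 CPM in pre-exposed mice and 183 ± 30.0 CPM in naïve mice (SD, n = 5 each). The log2 fold change was 0.68 with a standard error of 0.22 and an adjusted p of 0.0749 in edgeR, so the gene did not pass the threshold, and the exact permutation p was 0.00794. *Icos* passed in edgeR without pre-exposed mouse 1 (adjusted p = 0.0430) and with pre-exposed mice 2 to 4 alone (0.0412), and in DESeq2 (0.0319). Those settings called 13.4%, 29.8% and 10.7% of all genes. It had log2 fold changes of 0.58 with pre-exposed mice 2 to 4, 0.81 with mice 1 and 5 and 0.93 with the length trend removed.

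*Cd28* (Entrez 12487, chr1:60746388-60773359) lies 187413 bases from *Icos*. It had 251, 206, 203, 158 and 313 CPM in pre-exposed mice 1 to 5, against 169, 206, 223, 167 and 107 CPM in naïve mice 1 to 5. The groups overlapped widely, with pre-exposed mice 1 and 5 above the naïve range and pre-exposed mouse 4 among the lower naïve mice. Its log2 fold change was 0.37 with a standard error of 0.25 (edgeR adjusted p = 0.383, exact permutation p = 0.175). It was 0.07 with pre-exposed mice 2 to 4 alone and 0.75 with mice 1 and 5 alone. The log2 ratio of *Icos* to *Cd28*, computed after the values had been seen, averaged 0.39 ± 0.31 in pre-exposed mice and 0.10 ± 0.26 in naïve mice (SD, n = 5 each). Its difference of 0.29 was smaller than the spread within pre-exposed mice, with an exact permutation p of 0.151, unchanged by adjustment over the 3 ratios computed.

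OX40, the product of *Tnfrsf4*, is induced on activated T cells and is carried at high levels by regulatory T cells. *Tnfrsf4* (Entrez 22163, chr4:156013595-156016613) had 55.4, 107, 71.9, 80.9 and 13.99 CPM in pre-exposed mice 1 to 5, against 1.47, 2.64, 28.1, 15.1 and 7.08 CPM in naïve mice 1 to 5. Pre-exposed mice 1 to 4 lay above all naïve mice, whereas pre-exposed mouse 5 lay within the naïve range, below naïve mice 3 and 4. Means were 65.8 ± 34.4 CPM in pre-exposed mice and 10.9 ± 11.02 CPM in naïve mice (SD, n = 5 each), and the naïve SD is as large as its mean. The log2 fold change was 2.60 with a standard error of 0.66, a 6.08-fold difference (edgeR adjusted p = 0.0347, exact permutation p = 0.0238). Raw counts ran from 20 to 2192 per library, so no library was at 0. The gene shares 16 bases with *Sdf4*, and no source used here says whether the counting used strand.

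The call of *Tnfrsf4* depended on which mice were included, while its direction did not. Pre-exposed mice 2 to 4 alone, where 29.8% of all genes were called, gave a log2 fold change of 2.96 (edgeR adjusted p = 0.00430). Mice 1 and 5 alone gave 1.75 (0.347). Removing the length trend gave 2.15 (0.0978). Leaving out single libraries gave values of 2.31 to 3.39. The adjusted p was 0.0888, 0.0786, 0.0756 and 0.0816 without naïve mouse 1, 2, 4 or 5, and 0.111, 0.0655 and 0.0541 without pre-exposed mouse 2, 3 or 4. It was 0.0274 without naïve mouse 3, and 0.0297 and 0.00699 without pre-exposed mouse 1 or 5, where 13.4% and 14.8% of all genes were called. DESeq2 gave 0.00237, and voom with TREAT at a fold change of 1.5 gave 0.262, or 0.0488 with sample quality weights. These called 0.0158% and 2.27% of all genes.

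Genes of other cells were set beside *Tnfrsf4*, and *Cd4* and *Foxp3* among them were picked after their values had been seen. *Cd4*, the coreceptor of helper T cells, had 108, 82.8, 79.2, 113 and 6.90 CPM in pre-exposed mice 1 to 5, against 8.51, 14.6, 38.7, 23.7 and 22.1 CPM in naïve mice 1 to 5. *Foxp3*, the transcription factor that defines regulatory T cells, had 42.5, 42.6, 25.1, 33.4 and 4.18 CPM in pre-exposed mice and 6.16, 5.07, 11.7, 12.2 and 17.2 CPM in naïve mice. Pre-exposed mouse 5 was the lowest of all 10 mice for both, as it was the lowest pre-exposed mouse for *Tnfrsf4*. Naïve mouse 3 was the highest naïve mouse for *Cd4* and *Tnfrsf4* but not for *Foxp3*. *Foxp3* was highest in naïve mouse 5 (17.2 CPM), where *Tnfrsf4* had 7.08 CPM. Their log2 fold changes were 1.87 for *Cd4* (edgeR adjusted p = 0.0513) and 1.55 for *Foxp3* (0.0680). *Ctla4*, the inhibitory relative of *Cd28*, rose by 1.86 with a standard error of 0.53 (0.0491) and had 65.0, 55.8, 44.6, 24.8 and 21.1 CPM in pre-exposed mice, against 3.60, 3.36, 27.9, 14.4 and 9.25 CPM in naïve mice. *Trac*, the constant gene of the TCR α chain, rose by 1.17 (0.0222), with 5 of 5 pre-exposed mice above the naïve range, as in 2.77% of all tested genes. All 7 αβ T cell markers had positive log2 fold changes and 1 of them was called, with a median of 1.17, and none of the 7 was at 0 in either group. Their summed level did not follow *Tnfrsf4* from mouse to mouse, with 1619, 3331, 2862, 2814 and 2578 CPM in pre-exposed mice 1 to 5, against 1648 to 1997 CPM in naïve mice, so that mouse 1 was below and mouse 5 above the naïve range. The summed level of the 8 conventional dendritic cell markers was 431, 446, 238, 214 and 66.9 CPM across pre-exposed mice 1 to 5, against 57.4 to 83.6 CPM in naïve mice. As with *Tnfrsf4*, mice 1 to 4 were above the naïve range and mouse 5 was within it. The 6 plasmacytoid dendritic cell markers showed the same pattern, with 507, 467, 230, 205 and 116 CPM, against 100 to 151 CPM in naïve mice. Other marker sums did not. Monocyte and macrophage markers were above the naïve range in 5 of 5 pre-exposed mice, with 521 CPM in mouse 5. Erythroid markers were highest in mouse 5 (2040 CPM). Plasma cell and neutrophil markers each exceeded the naïve range in 3 pre-exposed mice, and NK and B cell markers each in 2. *Trdc*, the δ chain constant gene, had 1141 to 3626 CPM in pre-exposed mice and 1826 to 3873 CPM in naïve mice. The part of αβ T cells or of dendritic cells in the *Tnfrsf4* difference was not tested.

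**Figure D2:**
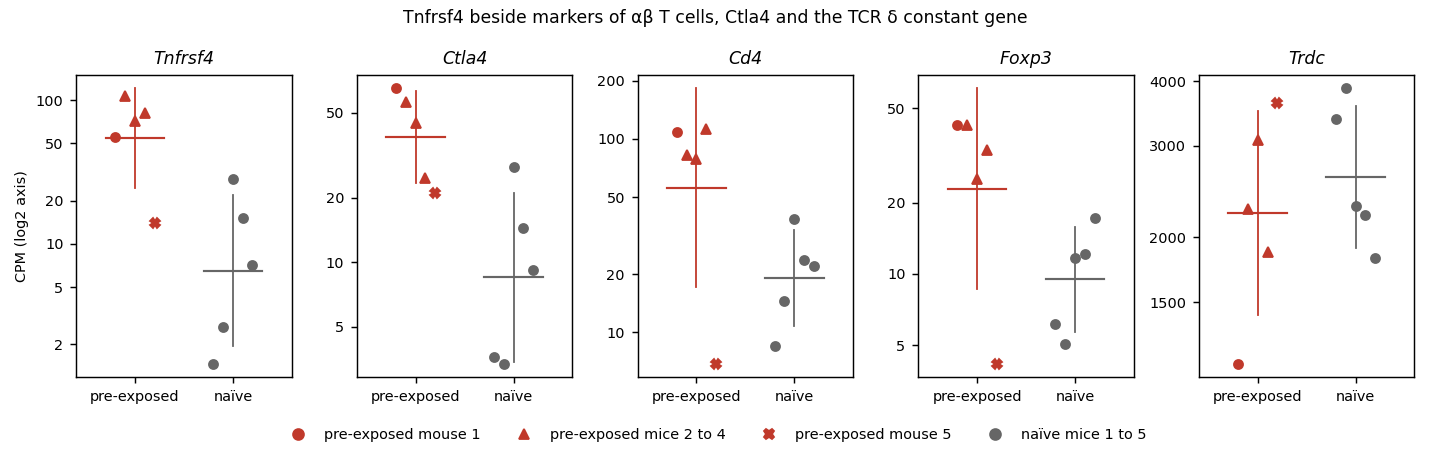
Levels in CPM (log2 axis) of *Tnfrsf4*, *Ctla4*, *Cd4*, *Foxp3* and *Trdc* in each mouse. Points are mice, horizontal bars are means and vertical bars 1 SD on the log2 scale. Pre-exposed mouse 5 has the lowest pre-exposed value for *Tnfrsf4* (13.99 CPM), *Cd4* (6.90 CPM) and *Foxp3* (4.18 CPM). Among naïve mice, the mouse highest for *Foxp3* is not the one highest for *Tnfrsf4* and *Cd4*. *Cd4* and *Foxp3* were picked after their values had been seen.

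GITR, the product of *Tnfrsf18*, is likewise carried by regulatory and activated T cells. *Tnfrsf18* (Entrez 21936, chr4:156026322-156028894) had 149.7, 272, 194, 251 and 136 CPM in pre-exposed mice 1 to 5, against 114, 130.2, 137, 99.1 and 143 CPM in naïve mice 1 to 5. Pre-exposed mice 1 to 4 lay above all naïve mice, and pre-exposed mouse 5 lay between naïve mice 2 and 3. Means were 200.3 ± 60.2 CPM in pre-exposed mice and 125 ± 17.8 CPM in naïve mice (SD, n = 5 each). The log2 fold change was 0.69 with a standard error of 0.24, which did not pass the threshold in edgeR (adjusted p = 0.0972, exact permutation p = 0.0238). With 1007 exonic bases it is the shortest of the 10 genes, and with the length trend removed its log2 fold change was 0.12 (adjusted p = 0.815). It passed with pre-exposed mice 2 to 4 alone (0.88, adjusted p = 0.00373), without pre-exposed mouse 5 (0.76, 0.0267), without pre-exposed mouse 1 (0.77, 0.0491) and in DESeq2 (0.67, 0.0424). Those settings called 29.8%, 14.8%, 13.4% and 10.7% of all genes. With pre-exposed mice 1 and 5 alone it was 0.25 (0.656).

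*Tnfrsf4* and *Tnfrsf18* were set against each other after their values had been seen. Their log2 ratio was -1.43, -1.35, -1.43, -1.63 and -3.26 in pre-exposed mice 1 to 5 and -6.14, -5.54, -2.28, -2.70 and -4.30 in naïve mice 1 to 5. Its mean differed by 2.37 between the groups, and 4 of 5 pre-exposed mice exceeded the naïve range (exact permutation p = 0.0238, 0.0714 adjusted over the 3 ratios computed). The naïve ratios spread over more than the 2 group means differ.

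CD27 binds CD70 and supports survival and IFNγ production. *Cd27* (Entrez 21940, chr6:125232620-125237136) had 97.4, 163, 132, 222 and 109 CPM in pre-exposed mice 1 to 5, against 104, 168, 135, 109 and 155 CPM in naïve mice 1 to 5. The groups overlapped almost fully, with pre-exposed mouse 4 above and pre-exposed mouse 1 below the naïve range. EdgeR gave a log2 fold change of 0.11 with a standard error of 0.26 (adjusted p = 0.834, exact permutation p = 0.825). Its sign was not stable, with 0.30 for pre-exposed mice 2 to 4, -0.33 for mice 1 and 5, -0.21 with the length trend removed and -0.10 without pre-exposed mouse 4. *Cd27* lies within the span of the long noncoding RNA gene E130112N10Rik, which had 0 to 37 counts per library, against 599 to 3348 for *Cd27*.

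The genes of the programmes that CD27 divides were compared next. Both lists were chosen with earlier results of these data known, so the counts below are no independent test of either programme. The paper had already listed *Ifng*, *Nkg7*, *Xcl1*, *Il23r*, *Il1r1*, *Cd163l1* and *Blk* as changed in these libraries. Of 14 genes of the IFNγ programme, 5 rose and 0 fell, with a median log2 fold change of 0.30, where 5.12% of all genes rose and 1.17% fell. Leaving out single libraries gave 1 to 6 higher and 0 or 1 lower. Removing the length trend left 0 called, against 1.69% of all genes. DESeq2 called 5 higher and 0 lower, against 1008 and 342 of 12655 genes. With pre-exposed mice 2 to 4 alone edgeR called 5 higher and 1 lower, against 1891 and 1885. With pre-exposed mice 1 and 5 alone it called 1 higher and 0 lower, against 23 and 0. *Ifng* rose by 1.44 (edgeR adjusted p = 0.0133), *Nkg7*, a cytotoxic granule protein, by 1.28 (0.0108), the chemokine gene *Xcl1* by 1.85 (0.0276) and granzyme B (*Gzmb*) by 1.44 (0.0324). Of 14 genes of the IL-17 programme, 3 fell and 0 rose, with a median of -0.80. The IL-23 receptor gene *Il23r* fell by 1.33 on the log2 scale (0.0116), the scavenger receptor gene *Cd163l1* by 2.41 (0.0238) and the IL-1 receptor gene *Il1r1* by 1.83 (0.0243). *Blk*, a Src-family kinase, had a log2 fold change of -1.39 (0.0545) and did not pass here, whereas the paper lists it as lower. The cytokine genes of the list, named after their values were seen, had positive values that did not pass: *Il17f* had 0.84 (0.226), with 3 of 5 pre-exposed mice above the naïve range, and *Il17a* had 0.27 (0.859). DESeq2 called 5 lower in the IL-17 list, edgeR called 6 lower without pre-exposed mouse 5, and leaving out other single libraries gave 1 to 4 lower. EdgeR called 7 lower with pre-exposed mice 2 to 4 alone and 0 with pre-exposed mice 1 and 5 alone. With the length trend removed it called 2 lower in the IL-17 list, against 39 of all genes. Of all 12655 genes tested, 148 were lower with all libraries and 342 in DESeq2. In edgeR 710 were lower without pre-exposed mouse 5, 1885 with mice 2 to 4 alone and 0 with mice 1 and 5 alone. *Cd27* itself was not called.

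4-1BB, the product of *Tnfrsf9*, is an activation-induced receptor. *Tnfrsf9* (Entrez 21942, chr4:150920155-150946104) had 72.8, 122, 137, 121 and 90.8 CPM in pre-exposed mice 1 to 5, against 106, 123, 113, 96.5 and 72.1 CPM in naïve mice 1 to 5. Both groups covered nearly the same range. Pre-exposed over naïve, the log2 fold change was 0.09 with a standard error of 0.24 (edgeR adjusted p = 0.853, exact permutation p = 0.706), with 0.25 for pre-exposed mice 2 to 4 and -0.27 for mice 1 and 5.

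TNFR2, encoded by *Tnfrsf1b*, is a receptor for TNF found mainly on blood cells and endothelium. *Tnfrsf1b* (Entrez 21938, chr4:145212368-145246870) had 180.2, 101, 109.8, 227 and 38.0 CPM in pre-exposed mice 1 to 5, against 154, 140.5, 114, 161 and 169 CPM in naïve mice 1 to 5. The pre-exposed mice were far more scattered than the naïve mice: mice 1 and 4 lay above the naïve range and mice 2, 3 and 5 below it. SDs were 73.5 CPM in pre-exposed mice and 21.3 CPM in naïve mice. On the log2 scale the fold change was -0.17 with a standard error of 0.35 (edgeR adjusted p = 0.810, exact permutation p = 0.508), and it was 0.13 with the length trend removed and 0.02 without pre-exposed mouse 5. With 4913 exonic bases this is the longest of the 10 genes.

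**Figure D3:**
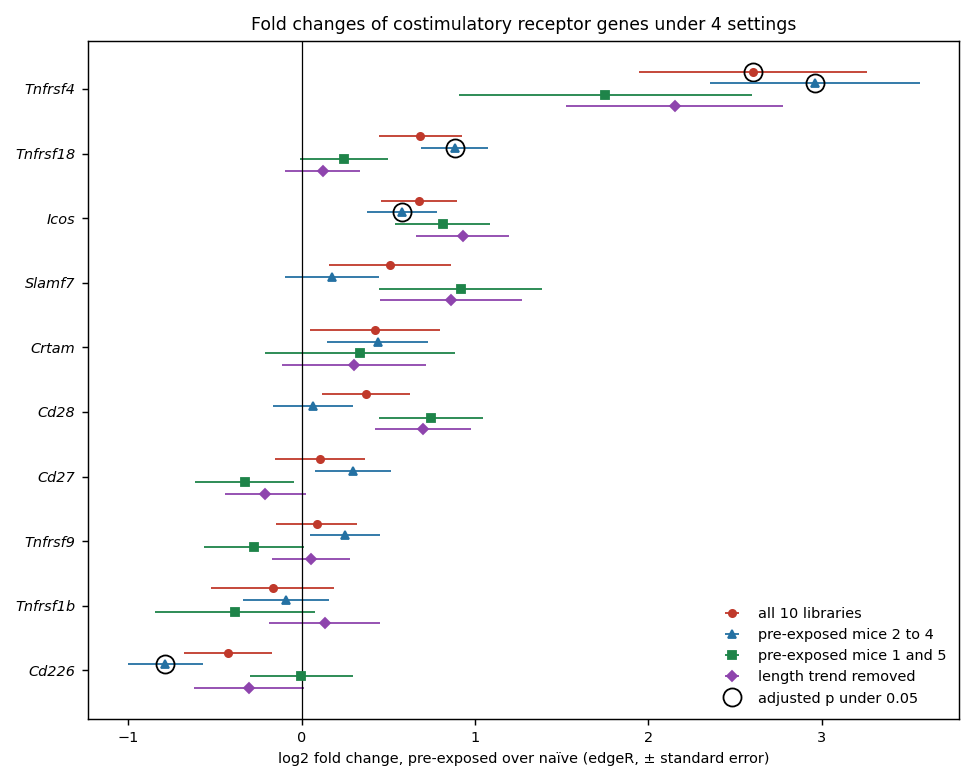
Log2 fold changes of pre-exposed over naïve mice from edgeR (x axis, ± standard error) for the 10 genes under 4 settings, with circles where the adjusted p was under 0.05. *Tnfrsf4* is positive under all 4 (1.75 to 2.96), while *Tnfrsf18* is 0.88 with pre-exposed mice 2 to 4 and 0.12 with the length trend removed.

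CD226 (DNAM-1) recognizes CD155 and CD112 and lowers the threshold for cytotoxicity. *Cd226* (Entrez 225825, chr18:89176954-89272232) had 408, 257, 385, 316 and 612 CPM in pre-exposed mice 1 to 5, against 591, 609.7, 558, 522 and 368 CPM in naïve mice 1 to 5. Pre-exposed mouse 5 was the highest and naïve mouse 5 the lowest of its group, and the other 4 pre-exposed mice lay below the other 4 naïve mice. Means were 396 ± 135 CPM in pre-exposed mice and 529.8 ± 96.5 CPM in naïve mice (SD, n = 5 each). The log2 fold change was -0.42 with a standard error of 0.25 (edgeR adjusted p = 0.323, exact permutation p = 0.135). With pre-exposed mice 2 to 4 alone *Cd226* was called lower, by 0.78 on the log2 scale (adjusted p = 0.0138). In that subset 1885 of 12655 genes were called lower, and a difference in preparation and pre-exposure cannot be told apart. With pre-exposed mice 1 and 5 alone it was -0.00012 (adjusted p = 0.9998).

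CRTAM is a nectin-like receptor of activated cytotoxic cells that binds CADM1. *Crtam* (Entrez 54698, chr9:40972798-41004628) had 33.5, 88.7, 119, 123 and 155 CPM in pre-exposed mice 1 to 5, against 81.0, 136, 69.4, 41.8 and 57.1 CPM in naïve mice 1 to 5. Pre-exposed mouse 1 was the lowest and pre-exposed mouse 5 the highest of all 10 mice, so the pre-exposed group spanned the whole naïve range. Its fold change on the log2 scale was 0.42 with a standard error of 0.37 (edgeR adjusted p = 0.519, exact permutation p = 0.452). It was 0.18 without pre-exposed mouse 5 (0.748), 0.65 without pre-exposed mouse 1 (0.192), 0.27 without naïve mouse 4 (0.746) and 0.73 without naïve mouse 2 (0.283).

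SLAMF7 (CRACC) is a self-ligand receptor of NK cells and cytotoxic T cells. *Slamf7* (Entrez 75345, chr1:171632403-171653037) had 251.6, 346, 432, 333 and 896 CPM in pre-exposed mice 1 to 5, against 359, 493.3, 329.7, 210.1 and 189.6 CPM in naïve mice 1 to 5. Pre-exposed mouse 5 stood alone above all others, and the other 4 pre-exposed mice lay within the naïve range. Its mean fold change was 0.51 on the log2 scale, with a standard error of 0.35 (edgeR adjusted p = 0.390, exact permutation p = 0.302), and it was 0.18 with pre-exposed mice 2 to 4 alone. Without pre-exposed mouse 5 it was 0.07 (adjusted p = 0.870). The same mouse had the highest summed level of the 8 NK cell markers, 5689 CPM, against 1006 to 3079 CPM in the other pre-exposed mice and 1383 to 3025 CPM in naïve mice. The part of that sum in the *Slamf7* value was not tested.

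Per kilobase of exon (RPKM), a scale that allows for exon length, the order of mean levels in pre-exposed mice was *Tnfrsf18* (199), *Cd226* (159), *Slamf7* (114), *Cd27* (91.8), *Icos* (90.1), *Tnfrsf4* (56.9), *Crtam* (55.3), *Cd28* (52.4), *Tnfrsf9* (48.9) and *Tnfrsf1b* (26.7). In naïve mice it was *Cd226* (213), *Tnfrsf18* (124), *Cd27* (85.3), *Slamf7* (79.6), *Icos* (56.2), *Tnfrsf9* (46.1), *Crtam* (41.1), *Cd28* (40.4), *Tnfrsf1b* (30.1) and *Tnfrsf4* (9.42). *Tnfrsf4* was thus the last of the 10 in naïve mice and the 6th in pre-exposed mice. RPKM leaves in the length trend, which differed between libraries. In orders or shares compared between the groups, that trend and pre-exposure cannot be told apart. *Tnfrsf18* and *Tnfrsf4*, which stood higher in the pre-exposed order, have 1007 and 1155 exonic bases. With the length trend removed, their log2 fold changes were 0.12 and 2.15. Between neighbours in either order the ranges over mice overlapped, except for *Cd226* above *Tnfrsf18* in naïve mice, where 5 of 5 mice held the order. Averaged over the 10 mice of both groups, all 10 members were above the median tested gene, which had 10.8 RPKM. Between 72.7% (*Tnfrsf1b*) and 96.1% (*Cd226*) of tested genes had lower levels. For *Tnfrsf4* this average hides the naïve level, which had a mean of 9.42 RPKM, with 1.27, 2.28 and 6.13 RPKM in naïve mice 1, 2 and 5. The share of *Cd226* in the summed RPKM of the 10 genes was 23.2%, 11.4%, 17.2%, 13.4% and 24.5% in pre-exposed mice 1 to 5, against 32.9%, 28.3%, 28.5%, 32.8% and 24.3% in naïve mice 1 to 5. That share was below all naïve mice in pre-exposed mice 1 to 4 and overlapped with naïve mouse 5 in pre-exposed mouse 5.

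**Figure D4:**
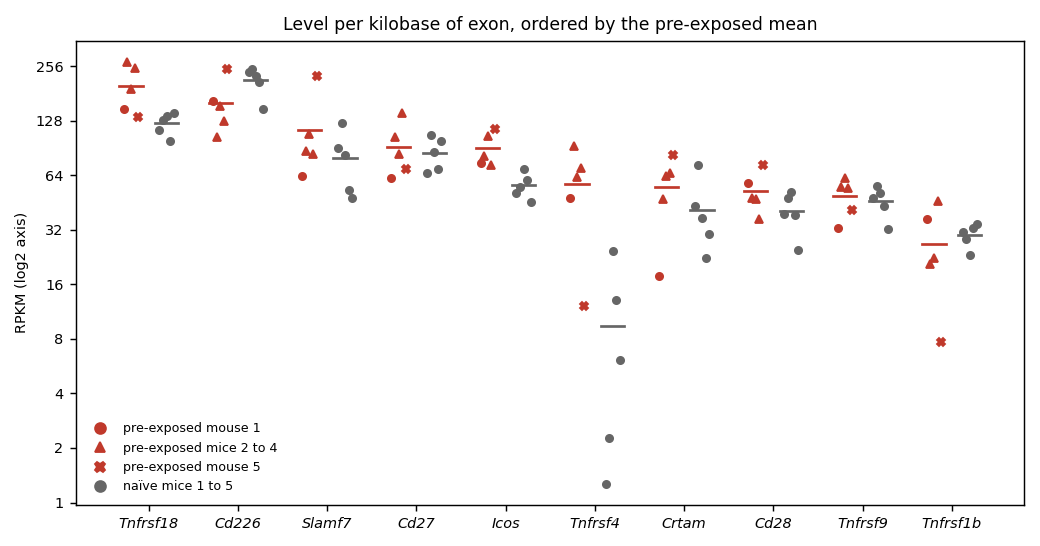
Levels of the 10 genes in RPKM (log2 axis), ordered by the mean in pre-exposed mice, which are drawn left of the naïve mice for each gene. Points are mice and bars are means. *Tnfrsf18* (199 RPKM) and *Cd226* (159 RPKM) lead in pre-exposed mice, and *Tnfrsf4* has means of 56.9 RPKM in pre-exposed and 9.42 RPKM in naïve mice.

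The likeness of profiles over the 10 mice was measured as the mean absolute difference of log2 CPM after each gene was centred on its own mean. Among the members, *Cd28* and *Icos* were closest (0.25), followed by *Cd27* and *Tnfrsf9* (0.27) and *Cd27* and *Tnfrsf18* (0.29). *Tnfrsf4* was far from every other member, at 1.44 from *Tnfrsf18* and 1.96 from *Cd226*. Among 10488 tested genes of at least 5 CPM on average, those nearest to *Cd27* were Gm12592 (0.10), *Phf23* (0.13), *Klf7* (0.13), *Rabepk* (0.14) and *Zfp956* (0.15). The nearest to *Tnfrsf4* were *Traj18* (0.40), a joining segment of the TCR α locus, *Ccnd1* (0.50), Gm8221 (0.51), *H2-M2* (0.58) and *Ly86* (0.61).

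The other genes of these pathways were described in lists. Counts called in a list are read against the share of all genes called. That share was 6.29% in edgeR, 10.7% in DESeq2 and 29.8% with pre-exposed mice 2 to 4 alone. It was 13.4% without pre-exposed mouse 1 and 14.8% without pre-exposed mouse 5. Of 12 ligands of the receptors, 10 were tested and none was called in edgeR and 1 in DESeq2, with 5 at an unadjusted p under 0.05 in edgeR and a median log2 fold change of 0.57. EdgeR called 5 of the 10 higher without pre-exposed mouse 5 and 5 with pre-exposed mice 2 to 4 alone, 1 without pre-exposed mouse 1 or 4, and 0 without any other single library. *Cadm1*, the CRTAM ligand, had 3.05 (adjusted p = 0.0534), *Cd80* had 2.23 (0.0873), *Cd86* had 1.42 (0.0936) and *Icosl* had 0.91 (0.111). *Icosl* had 43.3, 66.3, 64.4, 54.9 and 14.9 CPM in pre-exposed mice 1 to 5, against 19.0 to 33.04 CPM in naïve mice, so that pre-exposed mouse 5 was below and the other 4 above the naïve range. CD80 and CD86 are the ligands of CD28 on antigen-presenting cells, whose markers also moved: 5 of the 8 conventional dendritic cell markers tested rose and 0 fell, with sums of 66.9 to 446 CPM in pre-exposed mice and 57.4 to 83.6 CPM in naïve mice. The part of such cells in the ligand values was not tested. *Cd70* (17 counts over all libraries) and *Tnfsf18* (80 counts), the ligands of CD27 and GITR, were too low to be tested.

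Of 18 TRAF and NF-κB genes, 1 rose and 0 fell in edgeR, with a median log2 fold change of 0.13. DESeq2 called 2 higher and 2 lower, and edgeR called 2 higher and 5 lower with pre-exposed mice 2 to 4 alone, 1 higher and 2 lower without pre-exposed mouse 1, and 2 higher and 1 lower without pre-exposed mouse 5. With mice 2 to 4 alone, 1891 of all 12655 genes were called higher and 1885 lower. EdgeR called 0 of the 18 without naïve mouse 1, 2, 4 or 5 or pre-exposed mouse 2. *Nfkbia*, the NF-κB inhibitor IκBα and itself a target of NF-κB, had 552, 781, 579.9, 624 and 525 CPM in pre-exposed mice 1 to 5, against 225, 247, 386, 312 and 345 CPM in naïve mice 1 to 5. The groups did not overlap, a separation that 2.77% of all tested genes showed in this direction. *Nfkbia* rose by 1.02 with a standard error of 0.22 (edgeR adjusted p = 0.0225). *Nfkb1* had a log2 fold change of 0.61 (0.103) with 5 of 5 pre-exposed mice above the naïve range, the same separation. The ubiquitin ligase gene *Traf6* had -0.93 (0.0602) and the kinase gene *Ikbkb* -0.53 (0.135), each with 5 of 5 pre-exposed mice below the naïve range. The share of all tested genes separated in that lower direction is not given here, so these separations cannot be weighed against it. *Nfkb1*, *Traf6* and *Ikbkb* did not pass the threshold.

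Of 12 genes of CD28 and ICOS signalling, none was called in edgeR or in DESeq2, with 2 at an unadjusted p under 0.05 in edgeR and a median log2 fold change of -0.14. EdgeR called 1 lower without pre-exposed mouse 1 or 5 and 2 lower with pre-exposed mice 2 to 4 alone, against 13.4%, 14.8% and 29.8% of all genes. The kinase subunit gene *Pik3cd* had -0.88 (0.141), and the scaffold gene *Bcl10* had 0.29 (0.398). Among 13 tested of 14 SLAM and CD226 partners, 1 rose and 0 fell. DESeq2 called 3 higher, and edgeR called 2 higher without pre-exposed mouse 1 or 5, 2 higher and 2 lower with pre-exposed mice 2 to 4 alone, and 0 without naïve mouse 1, 2, 4 or 5 or pre-exposed mouse 2 or 3. *Sh2d1b1*, which encodes the SLAM adaptor EAT-2, rose by 2.51 with a standard error of 0.60 (0.0297), with 12.9, 16.3, 11.9, 3.40 and 1.09 CPM in pre-exposed mice 1 to 5, against 0.931 to 3.16 CPM in naïve mice. Pre-exposed mice 1 to 4 were above the naïve range and mouse 5 was within it. *Tigit*, the inhibitory receptor that shares ligands with CD226, had 1.32 (0.0599), the adaptor gene *Sh2d1a* (SAP) 1.12 (0.0891) and *Itgal* -0.49 (0.381). Of 8 other receptors of the same families, *Ctla4* rose and 0 fell, with 2 higher without pre-exposed mouse 5, 3 higher with pre-exposed mice 2 to 4 alone, 1 without naïve mouse 3 and 0 without any other single library. Of those not called, *Lag3* had 1.10 (0.111), *Havcr2* 1.66 (0.183) and *Tnfrsf25*, a TNF receptor family member, -0.69 (0.308). The paper lists *Tnfrsf25* as lower.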

How the data were processed

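EM γδ T cells of 5 pre-exposed and 5 naïve mice were sequenced, with groups and replicate numbers taken from the sample labels. The authors aligned read pairs to mm10 with Subread and counted them per Entrez gene with featureCounts, and deposited whole-number counts that were not normalized. The versions of these tools and the use of strand in counting are not stated, and the methods and the sample labels name different library kits. The table of the series equalled the 10 library files. Counts of any 2 replicates differed by more than sampling noise, with a chi-square of at least 21.0 per gene. P-values measure the spread between these libraries.

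filterByExpr kept 13534 genes, of which 767 without a symbol and 112 immunoglobulin genes were removed, leaving 12655. Libraries were scaled by TMM. Groups were compared by quasi-likelihood in edgeR 4.0.16 (R 4.3.3, robust, the non-legacy dispersion method), with Benjamini-Hochberg adjustment over all genes tested at 0.05. A standard error was taken as the absolute log2 fold change over the root of its F statistic. CPM were counts per 1e+06 of the scaled library size, RPKM were CPM per kilobase of exon, and log2 CPM had a prior count of 2. A count of 0 allows up to 3 counts at 95% confidence, for counting error only. Symbols, coordinates and promoters came from RefSeq (GRCm38.p6, matched for 25275 genes). The main fit, DESeq2, voom with TREAT, the older dispersion method, the length offset and the replicate block were run on simulated data. The other alternatives were not.

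The 10 genes and all lists were chosen with earlier results of these data known. Named genes are the 10 members, up to 4 genes of each pathway list with the smallest p, and the 5 genes nearest in profile to *Cd27* and to each member called. *Cd4*, *Foxp3*, *Trac*, *Trdc*, *Il17a* and *Il17f* were named after their values were seen. A few genes that this rule would name, and 1 of the 3 ratios, are not reported here. Alternatives were other scalings and filters, DESeq2 1.42.0, voom with TREAT (limma 3.58.1, fold change 1.5), the older dispersion method, a replicate block, a length offset (loess, span 0.3), subsets of the pre-exposed mice and each library left out.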

Additional observations from a re-analysis of the deposited data

Results flagged for a closer look

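*Slamf7* had 896 CPM in pre-exposed mouse 5, against 251.6 to 432 CPM in the other 4 pre-exposed mice. The gap to the nearest mouse made up 0.720 of the range of the group, above the critical value of Dixon's test for 5 samples. Of the 20 groups of values looked at (10 genes in 2 groups), 1 was picked out, and chance picks out about 1 in 20.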

How the results depend on the processing

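Of the 22 alternatives, *Tnfrsf4* kept its direction in 22 and its call in 10. The number of costimulatory receptor genes called, 1 of 10, was 3 in DESeq2, 4 with pre-exposed mice 2 to 4, and 0 with pre-exposed mice 1 and 5, voom with TREAT, the older dispersion method or the length trend removed. The 796 genes called in all became 1350 in DESeq2, 3776 with pre-exposed mice 2 to 4, 23 with mice 1 and 5, 2 with voom and TREAT, 287 with quality weights, 358 with the older dispersion method and 214 with the length trend removed. The paper, which used voom and TREAT, reported many more genes than the 2 found here with that method. Leaving out 1 library gave 0 to 3 receptor genes and 53 to 1870 genes in all, with 53, 110, 335, 151 and 170 without naïve mouse 1 to 5 and 1696, 76, 363, 543 and 1870 without pre-exposed mouse 1 to 5.

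Signs turned for *Cd27* (-0.21 with the length trend removed, -0.33 with pre-exposed mice 1 and 5, -0.10 without pre-exposed mouse 4), *Tnfrsf9* (-0.27 with pre-exposed mice 1 and 5, -0.015 without naïve mouse 5, -0.0089 without pre-exposed mouse 3) and *Tnfrsf1b* (0.13 with the length trend removed, 0.024 without pre-exposed mouse 5). The cause was not tested. With 1 library left out, the values ran from -0.10 to 0.22 for *Cd27*, from -0.015 to 0.20 for *Tnfrsf9* and from -0.46 to 0.024 for *Tnfrsf1b*. *Cd28*, *Crtam* and *Slamf7* kept their direction and did not pass the threshold in any of the 22 alternatives. Of the pathway genes, *Nfkbia* was called in 12, *Sh2d1b1* in 11 and *Ctla4* in 4 of the 22, and of the programme genes *Il23r* in 19, *Nkg7* in 18, *Ifng* in 16, *Il1r1* and *Cd163l1* in 13 each, *Xcl1* in 11 and *Gzmb* in 10, without a change of sign.

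Mice with the same replicate number did not deviate together (correlations of -0.10, -0.13, 0.00, 0.05 and -0.26 for numbers 1 to 5, with 0 of 5 closest to their own number), so the numbers do not pair the mice. With the replicate number as a block, 54 genes and 0 receptor genes were called, and *Tnfrsf4* had 2.96 (edgeR adjusted p = 0.0794).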
